A study of Homo sapiens with 60 samples.

Results

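The genes described here are 30 human genes that make cholesterol, switch its synthesis on and off, or move and store it inside the cell. They were taken from a list in the order of the pathway, by matching each gene's Ensembl identifier to its symbol. The matching used no measured value, but the list was drawn up with earlier results of these data known. All 30 were found among the 60675 genes of the count table, and all 30 were among the 16608 genes with enough counts to be tested. By role, 8 are enzymes of the mevalonate and isoprenoid steps, 12 are enzymes from squalene to sterols, 6 belong to the control of the transcription factor SREBP2, and 4 handle sterols once they are made or taken up.

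The cells were HT29, an established human colorectal adenocarcinoma line, and RNA was sequenced after 24 h of treatment. The 6 plant drugs were given as lyophilized hot-water extracts, each at 3 doses. They were fresh ginger (Zingiberis Rhizoma Recens), ginger (Zingiberis Rhizoma), Pinelliae Tuber, Scutellariae Radix, Coptidis Rhizoma and Zizyphi Fructus. The doses were 500, 100 and 20 µg/mL, called high, medium and low below, except for Coptidis Rhizoma, which was given at 290, 58 and 11.6 µg/mL. By the dose rule of the study's design text, an extract whose IC20 (the concentration that inhibits by 20%) lay under the top dose was given at its IC20 and at 2 dilutions of it, so by that rule the top dose of Coptidis Rhizoma is its IC20. The other groups were a vehicle group, with dimethyl sulfoxide (DMSO) at 0.1% by the sample labels and 2% by the design text, and 10 µM wortmannin, an inhibitor of phosphoinositide 3-kinases used as the positive control. Each of the 20 groups had 3 libraries. Whether those 3 are separate cultures is not said in the sources used here, and p-values therefore cover only the spread among libraries, which may be technical.

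Cholesterol is built from acetyl-CoA through mevalonate, isoprenyl diphosphates and squalene, which is closed into lanosterol and trimmed to cholesterol. SREBP2, made as a membrane protein of the endoplasmic reticulum, is held there by INSIG proteins when sterols are plentiful. When sterols are scarce, SCAP carries SREBP2 to the Golgi apparatus, where the site-1 and site-2 proteases release its N-terminal part, which enters the nucleus and activates genes of synthesis and uptake. INSIG1 is itself a target of SREBP2 and is a brake on it, and intestinal epithelium is one of the tissues that makes much of its own sterol.

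SREBP2 acts through sterol regulatory elements, often beside boxes bound by NF-Y and Sp1, so the start-site windows of the genes are shown before the values. RefSeq windows of GRCh38.p14, each 300 bases long from 250 before to 50 after a start, were matched for 27 of the 30 genes. The string TCACNCCAC, the core of a sterol regulatory element, read on both strands, was in the window of 379 of 27305 genes (1.39%), and SREBF2 was the 1 member of the 27 among them. The box CCAAT, which did not overlap it, on either strand, was in 19 of 27 members (70.4%) and in 39.7% of all genes. The box GGGCGG, which can share bases with the reverse of CCAAT, on either strand, was in 23 of 27 members (85.2%) and in 48.3% of all genes. A match is a string of letters and not a tested binding site. The 27305 genes were not limited to the 16608 tested genes, which include all the members. Whether the boxes are as frequent among expressed genes was not tested. The 250 bases before the start are printed 5′ to 3′ on the gene's strand, with TCACNCCAC and CCAAT, on either strand, in capitals. They are SREBF2, which holds the element at position -133 from its start, at chr22:41832855-41833104 on the plus strand, INSIG1 at chr7:155297628-155297877 (plus) and HMGCS1 at chr5:43313413-43313662 (minus), whose levels had the widest range, MVK at chr12:109573544-109573793 (plus), the first kinase of the pathway, and INSIG2 at chr2:118088221-118088470 (plus), whose levels went the other way in one treatment.
SREBF2: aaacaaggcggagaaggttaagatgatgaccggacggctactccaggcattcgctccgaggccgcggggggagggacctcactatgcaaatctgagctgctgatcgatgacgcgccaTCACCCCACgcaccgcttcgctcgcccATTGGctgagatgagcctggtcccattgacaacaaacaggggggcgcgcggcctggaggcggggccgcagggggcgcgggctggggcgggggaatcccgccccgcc
INSIG1: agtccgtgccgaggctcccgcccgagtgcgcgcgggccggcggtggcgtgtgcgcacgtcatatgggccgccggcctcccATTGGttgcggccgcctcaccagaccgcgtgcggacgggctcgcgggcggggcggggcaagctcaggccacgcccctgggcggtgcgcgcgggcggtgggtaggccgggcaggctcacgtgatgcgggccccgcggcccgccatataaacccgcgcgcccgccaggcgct
HMGCS1: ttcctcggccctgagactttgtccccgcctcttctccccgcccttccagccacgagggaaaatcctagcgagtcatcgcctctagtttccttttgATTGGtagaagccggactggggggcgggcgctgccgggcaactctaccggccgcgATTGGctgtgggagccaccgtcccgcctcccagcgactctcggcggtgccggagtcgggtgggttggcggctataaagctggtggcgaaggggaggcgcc
MVK: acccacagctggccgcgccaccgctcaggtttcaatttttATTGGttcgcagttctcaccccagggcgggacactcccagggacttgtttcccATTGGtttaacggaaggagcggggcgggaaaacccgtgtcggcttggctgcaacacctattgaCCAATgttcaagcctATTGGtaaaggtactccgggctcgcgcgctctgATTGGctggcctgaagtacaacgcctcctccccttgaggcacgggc
INSIG2: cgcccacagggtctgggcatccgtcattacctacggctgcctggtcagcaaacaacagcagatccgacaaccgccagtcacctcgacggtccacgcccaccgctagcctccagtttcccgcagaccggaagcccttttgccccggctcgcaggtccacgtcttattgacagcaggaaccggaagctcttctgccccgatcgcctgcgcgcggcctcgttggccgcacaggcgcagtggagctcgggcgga

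Levels below are CPM, counts scaled to a library of 1e6, which removes differences in library size. They include TMM normalisation, which adjusts for differences in RNA composition between libraries. Library totals ran from 11093671 to 34447663 counts, with a median of 23373632. Changes are log2 ratios from edgeR's quasi-likelihood test with their standard error (SE), and a gene is called where its Benjamini-Hochberg adjusted p over the 16608 genes is below 0.05. The 10 colon epithelial markers checked summed to between 10416 and 15348 CPM in every library, much of it KRT8 (median 6319 CPM) and KRT18 (3531). CDX1 stayed at 0.448 to 2.14 CPM, CDX2 at 3.74 to 9.56 and CEACAM5 at 1.89 to 11.5. The 13 markers of leukocytes, fibroblasts, endothelium and liver summed to 6.04 to 10.6 CPM, with CD3E at 0 in 57 of the 60 libraries. CD14, at 1.96 to 5.99 CPM, and CD79A, COL1A1, LUM and PECAM1 were above 0 in every library. Sample codes put the vehicle group in a set of its own and each pair of extracts in another, so a difference from vehicle cannot be told apart from a difference between sets, and high against low dose of the same extract is the comparison inside a set. All comparisons with vehicle share the same 3 vehicle libraries. Zizyphi Fructus high replicate 3, ginger high replicate 2, vehicle replicate 1 and fresh ginger low replicate 1 stood apart from the rest, at 28.8 to 58.2 on the second principal component where no other library was above 9.35, with 6.32 to 8.23% of counts in ribosomal protein genes. The Coptidis Rhizoma high-dose libraries, at 7.24, 6.43 and 6.51%, lay inside that range of ribosomal protein counts. The part of the libraries that stood apart was not tested beyond the fits without them, in which 22 members were called between high and low dose of Scutellariae Radix and 27 for Coptidis Rhizoma (21.7% and 57.3% of all genes). In a bulk culture, fewer cells of one kind and less RNA per cell cannot be told apart.

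In vehicle-treated cells, the levels spanned a wide range per kilobase of exon. SQLE, squalene epoxidase, which makes the first oxygenated sterol precursor, was highest at 185 CPM per kb, followed by DHCR7, the reductase of the last steps, at 108 and CYP51A1, the lanosterol demethylase, at 65.4. At the other end, MBTPS2, the site-2 protease, stood at 2.01 CPM per kb, and SOAT1, which esterifies cholesterol for storage, at 0.613. No member was at 0 in any library. Summed over the 30 genes, the level was 4299 ± 31.1 CPM in vehicle (SD, n = 3) and 4318 ± 51.4 with wortmannin. The sum was highest at the high dose of Scutellariae Radix, 5770.2 ± 74, and lowest at the high dose of Coptidis Rhizoma, 2531 ± 3.93. The high dose of Scutellariae Radix had the highest group mean of all 20 groups for 21 of 30 members, where it did so for 9.11% of all tested genes. The high dose of Coptidis Rhizoma had the lowest mean for 22 members, where it did so for 29.1% of all genes.

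**Figure D1:**
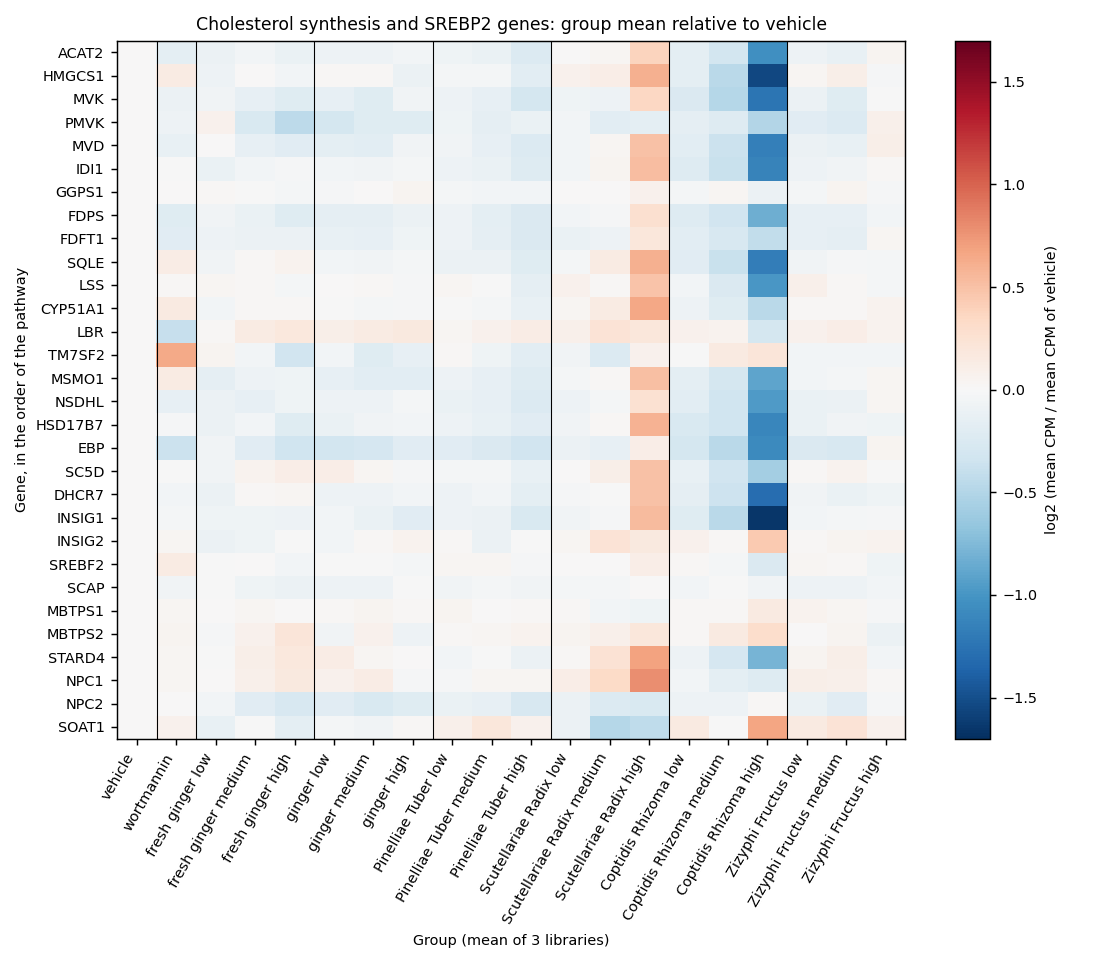
Mean level of each of the 30 genes (rows, in the order of the pathway) in each group (columns, mean of 3 libraries), as the log2 ratio to the vehicle mean. The high-dose Scutellariae Radix column is mostly above vehicle and the high-dose Coptidis Rhizoma column mostly below it, down to -1.65 for INSIG1.

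With Scutellariae Radix, the high dose raised 18 of the 30 genes over the low dose and lowered 1. Of all tested genes, 7.92% were called higher and 8.42% lower there (16.3% either way). The median change was 0.35 over the members and -0.011 over all genes. By role, 6 of the 8 mevalonate and isoprenoid enzymes rose, as did 9 of the 12 squalene and sterol enzymes, 1 of the 6 genes of SREBP2 control and 2 of the 4 genes of sterol handling. In 24 of 30 members all 3 high-dose libraries lay above all 3 low-dose libraries, which held for 18.9% of all genes.

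Among the early enzymes, IDI1, the isomerase that makes dimethylallyl diphosphate, was at 166, 164 and 169 CPM in the low-dose libraries and 248, 251 and 241 CPM in the high-dose libraries. The groups did not overlap, and the change was 0.57 ± 0.053 (SE; adjusted p = 3.79e-12). HMGCS1, the synthase that supplies HMG-CoA, was at 286, 254 and 260.1 CPM and then 393, 382 and 383 CPM, again with every high-dose library above every low-dose one. Its change was 0.53, and those of MVD, the decarboxylase, and MVK, mevalonate kinase, were 0.54 and 0.42. The thiolase gene ACAT2 rose by 0.37 and FDPS, farnesyl diphosphate synthase, by 0.32. The kinase gene PMVK was at 34.1, 28.4 and 30.3 CPM at the low dose and 28.1, 27.9 and 29.1 at the high dose, groups that overlap, and its change of -0.12 was not called. Nor was that of GGPS1, which makes geranylgeranyl diphosphate, at 0.063.

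Among the enzymes after farnesyl diphosphate, CYP51A1 was at 242, 236 and 239 CPM at the low dose and 383, 358 and 372 CPM at the high dose. All the high-dose libraries stood well above the low-dose ones, by 0.63 ± 0.038 (SE; adjusted p = 8.5e-19). SQLE was at 808, 767 and 757 CPM and then 1216, 1195 and 1209.9 CPM, a 1.55-fold level without overlap, and its change was 0.63 ± 0.039 (SE; adjusted p = 1.23e-18). DHCR7 went from 467, 421 and 441 to 645, 620.5 and 642 CPM, 0.52 ± 0.051 (SE; adjusted p = 1.67e-11). MSMO1, the sterol methyl oxidase, went from 115, 101 and 106 to 161, 157 and 153 CPM, 0.55 ± 0.065 (SE; adjusted p = 3.2e-09). In both genes, the lowest high-dose library was above the highest low-dose library. The other sterol enzymes that rose were HSD17B7, a ketosteroid reductase, by 0.64, SC5D, a desaturase, by 0.50, LSS, which closes the ring to lanosterol, by 0.42, NSDHL, of the same demethylation complex as MSMO1, by 0.34, and FDFT1, squalene synthase, by 0.30. EBP, an isomerase, and the reductases LBR and TM7SF2 had changes of 0.22, 0.12 and 0.14 that were not called, although the libraries of both doses did not overlap in any of the 3.

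Of the control genes, INSIG1 was called, at 184, 165 and 176 CPM at the low dose and 270.3, 259.6 and 264 CPM at the high dose. Its high-dose libraries were all above the low-dose ones, by 0.60 ± 0.056 (SE; adjusted p = 5.35e-12). The genes for the factor and its machinery had smaller changes that were not called, 0.11 for SREBF2 (which encodes SREBP2), 0.038 for SCAP, 0.12 for INSIG2, -0.096 for the site-1 protease gene MBTPS1 and 0.15 for MBTPS2. Their 95% intervals ran from -0.0014 to 0.22 for SREBF2 and from -0.06 to 0.14 for SCAP. In sterol handling, STARD4, a cytosolic sterol carrier, went from 70.6, 66.8 and 70.2 to 109, 109.7 and 109.7 CPM, 0.66 ± 0.061 (SE; adjusted p = 2.48e-12). NPC1, which exports cholesterol from lysosomes, went from 57.2, 54.9 and 54.1 to 89.7, 85.3 and 89.4 CPM, 0.67 ± 0.064 (SE; adjusted p = 6.76e-12). Both were higher in every high-dose library. NPC2, the luminal partner of NPC1, was at 51.6, 46.5 and 51.7 and then 45.2, 42.9 and 45.1 CPM, and the change of -0.17 was not called (adjusted p = 0.194, edgeR). SOAT1 was the one member called lower, at 3.41, 4.45 and 4.22 and then 2.72, 3.39 and 3.45 CPM, groups that overlap. Its change of -0.35 ± 0.13 (SE; adjusted p = 0.0471) rests near the threshold and was lost with DESeq2's size factors, with the DESeq2 Wald test and with the replicate number as a block.

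The summed level of the 30 genes was 4259.8 ± 108 CPM at the low dose, 4453 ± 80 CPM at the medium dose and 5770.2 ± 74 CPM at the high dose, 1.35 times the low dose. At the medium dose, 2 members were called over the low dose, SQLE (0.17 ± 0.038 SE, adjusted p = 0.00338) and STARD4 (0.23 ± 0.061 SE, adjusted p = 0.0235), where 1.78% of all genes were called higher. SQLE was at 904, 849 and 873 CPM and STARD4 at 84.2, 79 and 79.6 CPM in the medium-dose libraries, between the low and the high dose. No member was called without Scutellariae Radix medium replicate 1 or low replicate 3, and 1 was without medium replicate 3 (2.6% of all genes) or low replicate 2 (2.1%). The share of all genes called without medium replicate 1 or low replicate 3 is not given here. The group means went up from low to medium to high in 17 of 30 members and down in 2, against 24.5% and 27.7% of all genes. Against vehicle, the high dose raised 21 members and lowered 2, where 20.3% of all genes were called. The changes were 0.66 for CYP51A1, 0.60 for SQLE, 0.78 for NPC1, 0.68 for STARD4 and 0.52 for IDI1.

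**Figure D2:**
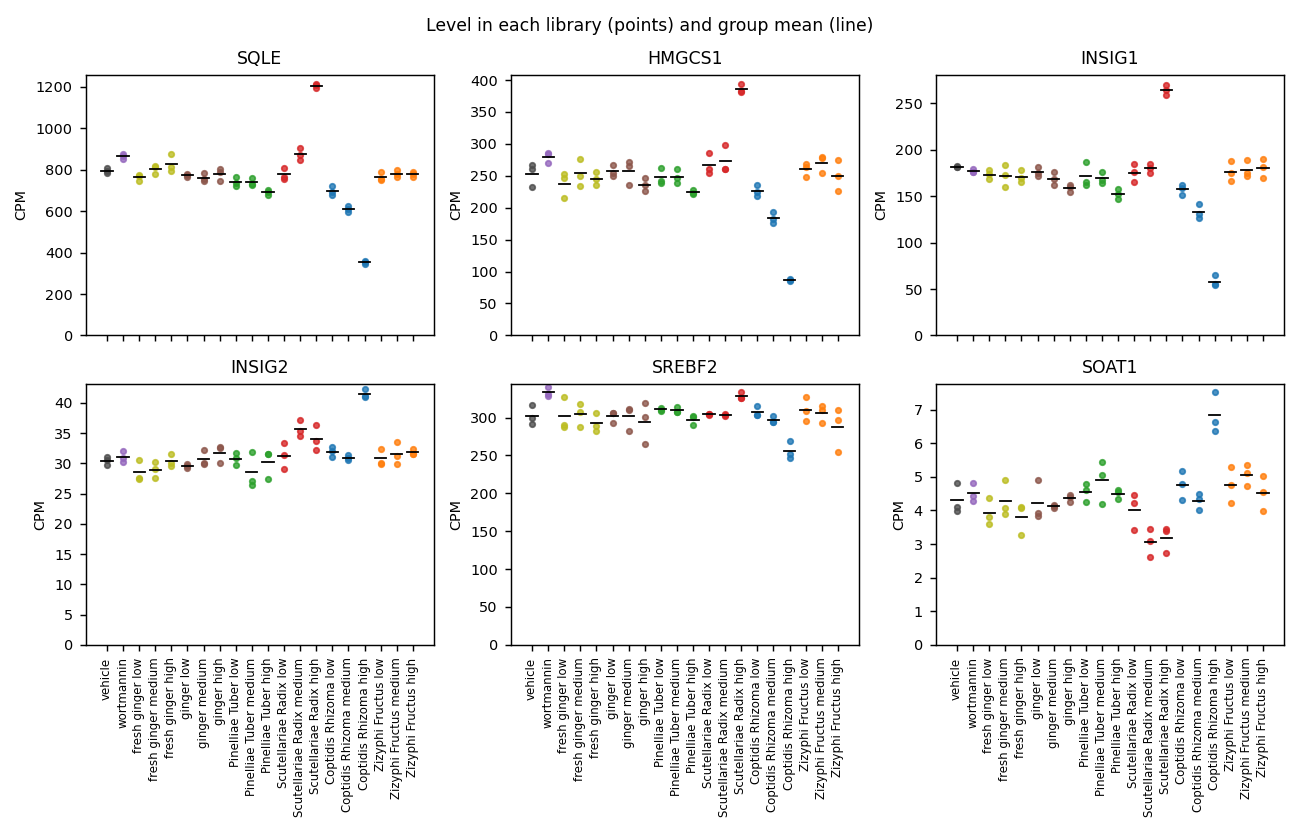
Level (CPM) of selected members in each library (points) with the group mean (line), from vehicle and wortmannin through the 3 doses of each extract. SQLE reaches 1216, 1195 and 1209.9 CPM at the high dose of Scutellariae Radix and 358, 344 and 356 CPM at the high dose of Coptidis Rhizoma, against 795, 782 and 808 CPM in vehicle.

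With Coptidis Rhizoma, the high dose lowered 22 of the 30 genes against the low dose and raised 5. Much of the transcriptome moved in the same comparison, with 52.4% of all genes called, 25.3% lower and 27.1% higher, and the members' counts are read against that. The median change was -0.53 over the members and 0.0013 over all genes. All but 1 of the 8 mevalonate and isoprenoid enzymes fell (7, median -0.90), as did 11 of the 12 squalene and sterol enzymes (median -0.75). Among the 6 control genes 2 fell and 3 rose, and among the 4 genes of sterol handling 2 fell and 1 rose. In 23 members all high-dose libraries lay below all low-dose libraries, where 30% of all genes did so. Mitochondrially encoded genes took 3.77 to 3.99% of counts in the high-dose libraries, 12.9 to 13.7% at the medium dose and 11.8 to 12.2% at the low dose. Their part in the result was not tested.

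HMGCS1 was at 236, 224 and 219 CPM in the low-dose libraries and 86.8, 85 and 87.6 CPM in the high-dose libraries, 0.382 of the low-dose level. The groups were far apart, and the change was -1.39 ± 0.067 (SE; adjusted p = 1.32e-23). IDI1 went from 148, 152 and 144 to 78.8, 76.2 and 80.4 CPM, -0.91 ± 0.054 (SE; adjusted p = 5.09e-20), and ACAT2 from 93.2, 93.8 and 96.6 to 50.7, 51.2 and 51.3 CPM, -0.89 ± 0.059 (SE; adjusted p = 2.8e-18). Neither gene had a high-dose library near its low-dose ones. The remaining early enzymes that fell were MVK by 1.00, MVD by 0.99, FDPS by 0.61 and PMVK by 0.34 on the log2 scale. GGPS1, at 42, 42.1 and 43.6 CPM and then 41.9, 38.6 and 42 CPM, was not called (change -0.061).

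SQLE had the smallest p of the members, at 721, 678 and 692 CPM at the low dose and 358, 344 and 356 CPM at the high dose. All 3 high-dose libraries were near the same level, and the change was -0.98 ± 0.039 (SE; adjusted p = 3.18e-27). DHCR7 went from 420.2, 391 and 402 to 185, 186 and 178 CPM, -1.14 ± 0.052 (SE; adjusted p = 9.72e-25). LSS went from 117, 109 and 114 to 54.2, 62.4 and 60.3 CPM, -0.94 ± 0.057 (SE; adjusted p = 7.34e-20), and NSDHL from 71.9, 73 and 70.1 to 42.7, 41.7 and 40.4 CPM, -0.79 ± 0.053 (SE; adjusted p = 4.76e-18). None of the 3 overlapped. The others that fell changed by -0.86 for HSD17B7, -0.77 for EBP, -0.73 for MSMO1, -0.45 for SC5D, -0.38 for CYP51A1, -0.37 for LBR and -0.23 for FDFT1 on the log2 scale. CYP51A1, whose rise with Scutellariae Radix had the smallest p, thus fell by less than most of the other enzymes here. TM7SF2, the reductase that shares LBR's reaction, was the one sterol enzyme that rose, from 38.9, 39.4 and 41.1 to 49.5, 47.3 and 42 CPM, which did not overlap (change 0.22 ± 0.067 SE, adjusted p = 0.00579).

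INSIG1 had the largest change of the 30 genes in this comparison, from 162, 159 and 151 CPM to 64.6, 54.1 and 55.4 CPM, 0.368 of the low-dose level. The lowest low-dose library was far above the highest high-dose one, and the change was -1.44 ± 0.059 (SE; adjusted p = 1.06e-26). Its relative INSIG2, which also retains SCAP and SREBP2, went the other way, from 31, 32 and 32.7 to 41.2, 42.3 and 40.9 CPM (0.38 ± 0.058 SE, adjusted p = 2.61e-07). Every high-dose library was above every low-dose one. SREBF2 itself was at 303, 303 and 315 CPM and then 247, 269 and 252 CPM, a change of -0.26 without overlap, and SCAP was not called (-0.0062, 95% interval -0.10 to 0.091). The protease genes MBTPS1 and MBTPS2 rose by 0.14 and 0.28. In sterol handling, STARD4 fell by 0.71 and NPC1 by 0.17, NPC2 was not called (0.11), and SOAT1 rose from 4.78, 4.32 and 5.16 to 6.38, 6.64 and 7.52 CPM (0.53 ± 0.11 SE, adjusted p = 5.7e-05). The 5 genes that rose and SREBF2, NPC1 and PMVK are named for completeness after their values were seen, and the calls of NPC1, MBTPS1, PMVK and TM7SF2 were each lost under at least 1 alternative.

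The fall was already measurable at the medium dose, where 4 members were called lower than at the low dose against 0.355% of all genes. SQLE was at 612, 595 and 623 CPM (-0.19 ± 0.039 SE, adjusted p = 0.00147), and HMGCS1 at 193, 183 and 176 CPM (-0.30 ± 0.066 SE, adjusted p = 0.00454). INSIG1 was at 142, 126 and 131 CPM (-0.24 ± 0.057 SE, adjusted p = 0.0106), and DHCR7 at 349.8, 342 and 359 CPM (-0.21 ± 0.051 SE, adjusted p = 0.0191). All 4 lay between their low-dose and high-dose levels. In 17 members all medium-dose libraries were below all low-dose ones, where 8.85% of all genes were. Without Coptidis Rhizoma low replicate 1, 1 member was called (0.854% of all genes), and without medium replicate 2 or medium replicate 3, 2 were (0.889% and 0.893%). Over the 3 doses, the group means went down step by step in 22 members and up in 3, against 28.8% and 29.3% of all genes. Against vehicle, the high dose lowered 22 members and raised 5, where 53.8% of all genes were called. SQLE changed by -1.17, INSIG1 by -1.65, DHCR7 by -1.30, HMGCS1 by -1.55 and IDI1 by -1.13.

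Set side by side, Scutellariae Radix and Coptidis Rhizoma moved largely the same genes in opposite directions, in comparisons that share no library. All 18 genes raised by Scutellariae Radix were among the 22 lowered by Coptidis Rhizoma (100% and 81.8% of the lists). Over all tested genes, 343 of the 1315 raised by Scutellariae Radix were among the 4197 lowered by Coptidis Rhizoma (26.1% and 8.17%). The 4 lowered by Coptidis Rhizoma alone were PMVK, LBR, EBP and SREBF2, whose Scutellariae Radix changes were not called. The sign differed in 26 of the 30 genes (86.7%) and in 46.9% of all genes. Across the 30 genes, which are not independent replicates, Pearson's r between the changes was -0.735 and Spearman's rho -0.657, and across all 16608 genes they were 0.129 and 0.107. The difference between the 2 high-against-low changes was called for 24 members, 21 of them higher with Scutellariae Radix, where 38.8% of all genes were called. The doses differ between these extracts and are not matched. Against Pinelliae Tuber, which shares its set of sample codes, the Scutellariae Radix change was called higher for 19 members and lower for 0 (6.32% of all genes called). Against Zizyphi Fructus, from the set of Coptidis Rhizoma, the Coptidis Rhizoma change was lower for 20 members and higher for 4 (41.4% of all genes called). That comparison includes Zizyphi Fructus high replicate 3, which stood apart from the rest.

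**Figure D3:**
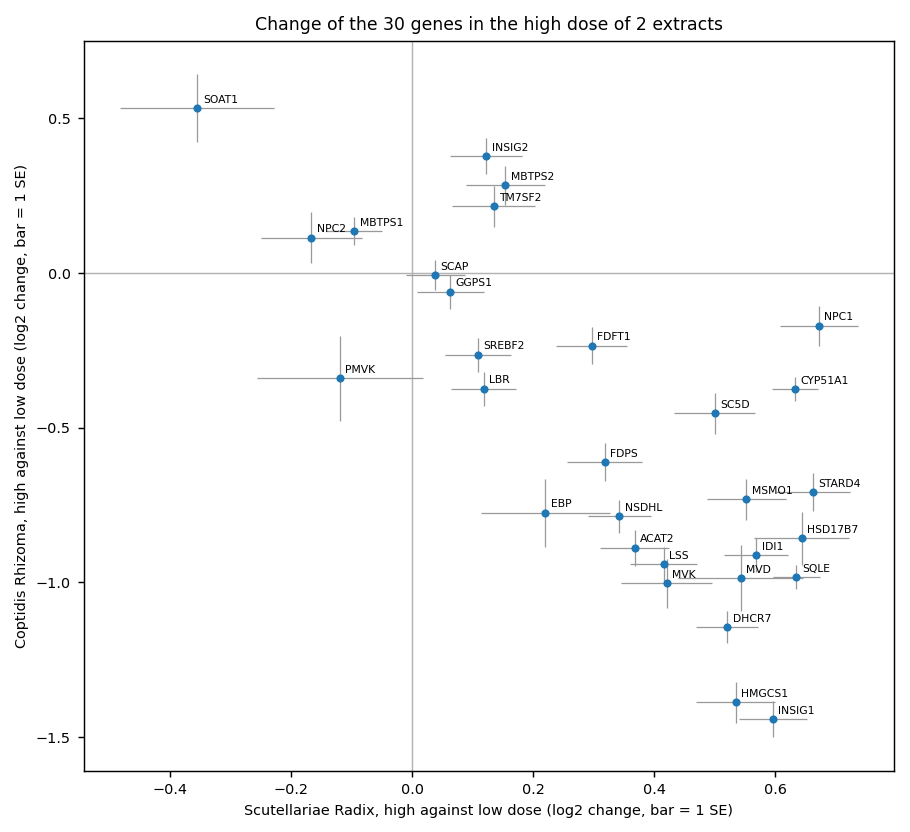
Change of each of the 30 genes between high and low dose (log2, bars 1 SE), Scutellariae Radix on the horizontal axis and Coptidis Rhizoma on the vertical axis. Most genes lie to the right of 0 and below 0, with INSIG1 at 0.60 and -1.44, and SOAT1, at -0.35 and 0.53, lies on the opposite side.

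With wortmannin, 3 of the 30 genes were called higher and 5 lower against vehicle, where 20.6% of all genes were called (9.72% higher, 10.8% lower), so that the count of members is near the share of all genes. The median change was 0.0034 over the members and 0.0048 over all genes. The clearest pair were the reductases of the same step. TM7SF2 was at 43.4, 40.2 and 36.6 CPM in vehicle and 59.2, 62 and 66.1 CPM with wortmannin, a 1.56-fold level and a change of 0.64 ± 0.068 (SE; adjusted p = 2.29e-10). LBR, which also binds the nuclear lamina, was at 172, 193 and 199.9 and then 143, 141 and 145 CPM, 0.759 of the vehicle level (-0.40 ± 0.055 SE, adjusted p = 1.85e-07). In both genes the groups did not overlap, and they moved in opposite directions. CYP51A1 rose by 0.15 (adjusted p = 0.00341, edgeR) and SQLE by 0.12 (adjusted p = 0.0195). EBP changed by -0.36 ± 0.11 (SE; adjusted p = 0.0132), FDFT1 by -0.19 (adjusted p = 0.0156), FDPS by -0.20 (adjusted p = 0.0179) and ACAT2 by -0.16 (adjusted p = 0.0407), each lower. None of the control or sterol-handling genes was called. Without vehicle replicate 1, which was at 126 CPM for EBP where the other vehicle libraries were at 92.4 and 94.6, only TM7SF2, LBR and CYP51A1 were called (12.5% of all genes), and without wortmannin replicate 2, 5 members were (14.5%). Without the 4 libraries that stood apart, 7 were (19% of all genes).

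With Pinelliae Tuber, no member was called between high and low dose (0.0421% of all genes were), with edgeR or the DESeq2 Wald test. The changes leaned to the same side, 27 of 30 below 0 with a median of -0.11, where that of all genes was -0.0021. The 30 genes come from the same libraries and are not independent replicates, and the share of all genes below 0 is not given here. At an unadjusted p below 0.05 there were 12 of the 30 members and 544 of the 16608 genes. In 14 members all the high-dose libraries were below the low-dose ones, where 5.32% of all genes were. The smallest p were those of LSS, at 121, 118 and 122 CPM and then 103, 109 and 104 CPM (-0.19 ± 0.056 SE, adjusted p = 0.635), and of CYP51A1, at 238, 241 and 223 CPM and then 212, 215 and 217 CPM (-0.12 ± 0.038 SE, adjusted p = 0.815). In neither gene did the doses overlap. The summed level was 4136 ± 99 CPM at the low dose and 3860.1 ± 26.6 CPM at the high dose, 0.933 of it. Against vehicle, 3 members were called lower (0.187% of all genes called), SQLE at -0.20 (adjusted p = 0.00391, edgeR), INSIG1 at -0.26 (adjusted p = 0.0285) and NSDHL at -0.23 (adjusted p = 0.0324). Without Pinelliae Tuber high replicate 3 none of the 3 was called, and without high replicate 2, vehicle replicate 1 or vehicle replicate 3, 1 was (0.0949%, 0.0828% and 0.101% of all genes). Without the 4 libraries that stood apart, 3 were (0.189%). For the fit without high replicate 3, the share of all genes is not given here.

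**Figure D4:**
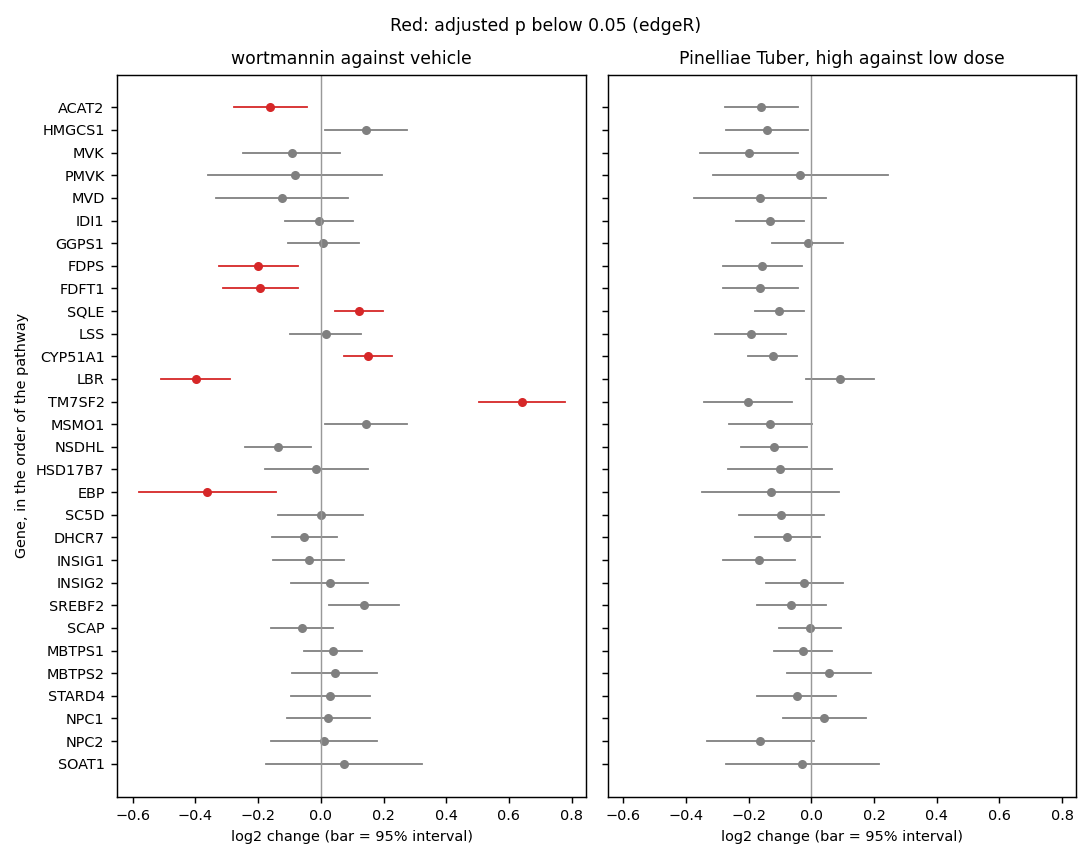
Change of each of the 30 genes (log2, bars the 95% interval) with wortmannin against vehicle and with Pinelliae Tuber high against low dose. The called genes are in red: 8 with wortmannin, on both sides of 0, and 0 with Pinelliae Tuber, whose points lie mostly at or below 0.

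The 2 gingers and Zizyphi Fructus had at most 1 of these genes called between high and low dose. Fresh ginger lowered TM7SF2, at 45.1, 38.6 and 40.5 CPM at the low dose and 30.7, 32.9 and 32.6 CPM at the high dose (-0.36 ± 0.073 SE, adjusted p = 0.00201), the 1 member called where 1.79% of all genes were. The next was PMVK, at 42.8, 24.5 and 33.5 CPM and then 23.7, 24.9 and 21.7 CPM, -0.49 ± 0.15 (SE; adjusted p = 0.0661). Without fresh ginger low replicate 2, 9 members were called (7.72% of all genes), and without low replicate 3, 2 were (0.911%). Without the 4 libraries that stood apart, 1 was called (1.18%). Against vehicle, TM7SF2 was again the 1 member called with fresh ginger (-0.32 ± 0.071 SE, adjusted p = 0.00576), where 2.08% of all genes were, and it was not called without vehicle replicate 1. Without vehicle replicate 3, 4 members were (2.55% of all genes). TM7SF2, lower here, was higher with wortmannin against vehicle and with Coptidis Rhizoma against its low dose. For ginger, 0 members were called (0.915% of all genes), with 1 at an unadjusted p below 0.05 and 0 by the DESeq2 Wald test. With DESeq2 size factors, and not the TMM scaling of the member counts, 2026 of all genes had such a p. Among the members, INSIG1 had the smallest p, at -0.15 ± 0.057 (SE; adjusted p = 0.254), then STARD4 at -0.12 ± 0.062 (SE; adjusted p = 0.435). The changes of the 2 gingers differed for 0 members with either tool (0% of all genes called), with 9 at an unadjusted p below 0.05 and 5 called without fresh ginger low replicate 2 (6.23% of all genes). For that difference, 2386 of all genes had an unadjusted p below 0.05 with DESeq2 size factors. For Zizyphi Fructus, 0 were called (0.0482% of all genes), 7 had an unadjusted p below 0.05, where 4051 of all genes did, and the DESeq2 Wald test called 1. FDFT1 changed by 0.17 ± 0.059 (SE; adjusted p = 0.0802) and NSDHL by 0.14 ± 0.052 (SE; adjusted p = 0.0945), neither called, and without Zizyphi Fructus high replicate 1, 7 members were called where 25.9% of all genes were, and without high replicate 2, 3 were where 9.5% were. Without the 4 libraries that stood apart, 0 members were called for ginger and for Zizyphi Fructus.

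At the medium dose, no member was called against the low dose in fresh ginger, ginger, Pinelliae Tuber or Zizyphi Fructus, in which 0% of all genes were called, by edgeR or by the DESeq2 Wald test. At an unadjusted p below 0.05 they had 3, 1, 0 and 0 members. With DESeq2 size factors, and not the TMM scaling of the member counts here, 1044, 439, 342 and 391 of the 16608 genes had such a p. Against vehicle, the high doses of ginger and Zizyphi Fructus had 0 members called by edgeR (0.789% and 0.0181% of all genes), with 5 and 0 at an unadjusted p below 0.05 and 1 and 0 by the DESeq2 Wald test. Of all genes, 1408 and 756 had an unadjusted p below 0.05 there with DESeq2 size factors. The mean of the 6 low doses differed from vehicle in 0 members by either tool (0.0783% of all genes called), with 8 at an unadjusted p below 0.05, 21 of 30 below 0 and a median of -0.065. With DESeq2 size factors, 2312 of all genes had an unadjusted p below 0.05 for that mean, and their median change was 0.0006 over all genes. The share of all genes below 0 is not given here.

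Other lipid genes were read from lists written beside the 30, and counts are given for the high against the low dose. Of all tested genes, 7.92% were called higher and 8.42% lower with Scutellariae Radix, 27.1% and 25.3% with Coptidis Rhizoma, and 9.72% and 10.8% with wortmannin, and the counts are read against these. Of 11 tested genes of fatty acid synthesis, 5 rose and 0 fell with Scutellariae Radix, and 1 rose and 8 fell with Coptidis Rhizoma. The acetyl-CoA synthetase gene ACSS2 rose by 1.04 and LPIN1, a phosphatidate phosphatase, by 0.79 with Scutellariae Radix. FASN, fatty acid synthase, changed by -1.13 and ACLY, which makes acetyl-CoA in the cytosol, by -0.52 with Coptidis Rhizoma. Of 14 genes of the isoprenoid branches, 1 rose and 0 fell with Scutellariae Radix, and 1 rose and 5 fell with Coptidis Rhizoma, 6 called in all and near the share of all genes. Sterol transport and export, 14 genes, was mixed, with 3 higher and 3 lower for Scutellariae Radix and 6 higher and 3 lower for Coptidis Rhizoma. TMEM97, an NPC1-binding protein, followed the enzymes, at 0.42 and -1.05, while SCARB1, a lipoprotein receptor, rose by 0.42 with Scutellariae Radix. Of 11 partners of sterol sensing in the endoplasmic reticulum, 2 rose and 1 fell with Scutellariae Radix, among them the ubiquitin ligase gene RNF145 at -0.40, and 5 rose and 3 fell with Coptidis Rhizoma. Against vehicle, wortmannin raised 1 of the fatty acid genes (ACSS2, 0.35), lowered 3 of the isoprenoid genes and 3 of the sensing partners, and raised 4 and lowered 2 of the transport genes, among them LIPA, the lysosomal acid lipase, up by 0.51.

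Many members share exon bases or near copies with other genes, so their counts are less certain, and not all are listed here. CYP51A1 shares 2844 exon bases with a gene on the same strand and has 3 pseudogenes, GGPS1 shares 1422 with TBCE, and MBTPS2 shares 1093 with YY2. FDPS has 8 pseudogenes and HSD17B7 has 2. ACAT2 overlaps TCP1 and SOD2 on the opposite strand, and the strand setting of the counting was not given in the sources used here. Also on the opposite strand, MVK shares 306 bases with MMAB, NPC1 604 with RMC1, FDPS 693 with RUSC1-AS1 and GGPS1 138 with ARID4B. The median levels of those 4 other genes were 50.5, 14.7, 19.5 and 61.1 CPM. SOAT1, at 3.97, 4.1 and 4.82 CPM in vehicle, was the lowest member.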

How the data were processed

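RNA of HT29 cells was sequenced in 60 libraries, 20 groups of 3, with a directional kit, per the labels' protocols. The authors deposited a table of expected counts per gene, for which RSEM 1.3.3, STAR 2.7.3a, the build GRCh38, Trim Galore 0.6.5 and FastQC 0.11.9 are named, per the submitters' processing notes. The annotation release and strand setting were not given in the sources used here. The 210 columns of other samples in that table were not used. Expected counts were rounded, since 8.75% of the deposited values were not whole. edgeR 4.0.16 (R 4.3.3) fitted 1 coefficient per group over all 60 libraries, with TMM scaling, filterByExpr and robust quasi-likelihood tests, which left 40 residual degrees of freedom and a common dispersion of 0.00443. P-values were adjusted (Benjamini-Hochberg) over 16608 genes in each of 24 comparisons and called below 0.05. The scripts were tested on simulated data. The members and lists were chosen with earlier results of these data known. Named with values were the called members by smallest p, up to 8 in wortmannin and high-against-low comparisons (the 2 smallest p where fewer than 2 were called) and up to 5 elsewhere, and up to 2 called genes of each other list. Alternatives were DESeq2 size factors, no filter, the DESeq2 1.42.0 Wald test, a fit of the compared libraries only, a block for replicate number, a fit without each library, and a fit without 4 libraries set apart by an earlier analysis of these data (vehicle 1, fresh ginger low 1, ginger high 2, Zizyphi Fructus high 3). Depth, from 11093671 to 34447663 counts, limits precision most for SOAT1. Gene positions are from GENCODE 29, and promoter sequences are from RefSeq GRCh38.p14.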

Additional observations from a re-analysis of the deposited data

Results flagged for a closer look

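The changes given here differ between extracts by a test of the difference itself in edgeR. The high-against-low change of Scutellariae Radix differed from that of Pinelliae Tuber, tested within the same set of sample codes, for 19 members (6.32% of all genes), by 0.76 for CYP51A1, 0.74 for SQLE, 0.76 for INSIG1, 0.70 for IDI1 and 0.60 for DHCR7 on the log2 scale. Scutellariae Radix rose in all of these, and Pinelliae Tuber had no member called. The change of Coptidis Rhizoma differed from that of Zizyphi Fructus for 24 members (41.4% of all genes), by -1.01 for SQLE, -1.47 for INSIG1, -1.14 for DHCR7, -1.33 for HMGCS1 and -1.03 for IDI1. Zizyphi Fructus high replicate 3, which stood apart from the rest, is part of that difference, and the difference without it is not given here. The change of Scutellariae Radix differed from that of Coptidis Rhizoma for 24 members (38.8% of all genes), by 1.62 for SQLE, 2.04 for INSIG1, 1.66 for DHCR7, 1.92 for HMGCS1 and 1.48 for IDI1, in libraries from 2 sets. The Coptidis Rhizoma high dose had mitochondrially encoded genes at 3.77 to 3.99% of counts, and its part in these differences was not tested.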

How the results depend on the processing

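Of 67 named member values, 60 were called in the reported fit, 43 of them under every alternative and left-out library, and none changed sign. With Scutellariae Radix high against low, 18 members were called with DESeq2 size factors, with the Wald test and with the block, and 23 in the fit of the compared libraries only. Counts of called members moved in the following. Without the filter on low counts, wortmannin against vehicle had 5, fresh ginger high against low 3, Zizyphi Fructus 2, Scutellariae Radix medium against low 1, Coptidis Rhizoma medium 2, fresh ginger against vehicle 5, Pinelliae Tuber against vehicle 6, the low-dose mean 1 and ginger minus fresh ginger 2. With the DESeq2 Wald test, fresh ginger had 3, Zizyphi Fructus 1, Scutellariae Radix medium 4, fresh ginger against vehicle 6, ginger against vehicle 1 and Pinelliae Tuber against vehicle 7. With the compared libraries only, wortmannin had 5, fresh ginger 0, Coptidis Rhizoma medium 13, fresh ginger against vehicle 0 and Pinelliae Tuber against vehicle 0. Without the 4 libraries that stand apart, Pinelliae Tuber high against low had 1, Scutellariae Radix medium 5 and Coptidis Rhizoma medium 10. Calls over all genes also moved in many of these fits, and part of them are given below. They are not given for wortmannin, or for Scutellariae Radix high against low with size factors, the Wald test or the block. Nor are they given for Scutellariae Radix medium without the filter or with the Wald test. The same holds for Coptidis Rhizoma medium without the filter and fresh ginger high against low with the Wald test. Member counts in those fits cannot be read against all genes. The cause was not tested.

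Leaving out each library in turn, the counts ranged from 3 to 8 for wortmannin, 1 to 9 for fresh ginger, 18 to 19 for Scutellariae Radix, 25 to 26 for Coptidis Rhizoma, 0 to 7 for Zizyphi Fructus, 0 to 3 for Scutellariae Radix medium, 1 to 3 for Coptidis Rhizoma medium, 0 to 4 for fresh ginger and for Pinelliae Tuber against vehicle, and 0 to 5 for ginger minus fresh ginger. Calls over all genes also ranged widely for fresh ginger and Zizyphi Fructus, as given below. The member counts of fresh ginger and Zizyphi Fructus are therefore not read as a trait of the 30 genes. Nor are the other counts that ranged widely. Those of Scutellariae Radix, at 18 to 19, and Coptidis Rhizoma, at 25 to 26, kept a narrow range.

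Replicate numbers did not pair the samples: same-numbered deviations correlated at -0.37 to 0.21 and in 0 of 19 comparisons did every pair pass 0.1. With the replicate number as a block, 9 members were called for wortmannin, 18 for Scutellariae Radix and 27 for Coptidis Rhizoma high against low, and no other count of members moved by more than 1. The share of all genes called with the block is not given here, so these counts are not read against it.

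Over all genes, no filter raised the called genes from 7 to 89 for Pinelliae Tuber, 8 to 1982 for Zizyphi Fructus, 298 to 559 for fresh ginger and 152 to 436 for ginger high against low, and from 0 to 57, 63, 74 and 140 at the medium doses of ginger, Zizyphi Fructus, Pinelliae Tuber and fresh ginger. Zizyphi Fructus had 1185 with the Wald test and 2 to 4375 leaving out a library, and fresh ginger 116 to 1305. The compared libraries only gave 4141 for Scutellariae Radix (2714), 482 for Coptidis Rhizoma medium (216), 23 for fresh ginger, 34 for ginger, 0 for Zizyphi Fructus and 1663 for Scutellariae Radix minus Pinelliae Tuber (1050 in the reported fit). Against vehicle, no filter gave 1113 for fresh ginger (346), 611 for Pinelliae Tuber (31), 242 for ginger (131), 97 for Zizyphi Fructus (3) and 941 for the low-dose mean (13), and the Wald test 548, 62, 166, 12 and 43. The compared libraries only gave 74, 9, 10 and 0 for the first 4. Without the 4 libraries, Scutellariae Radix medium had 971 (556), Coptidis Rhizoma medium 367, Pinelliae Tuber 15, Zizyphi Fructus 3, ginger against vehicle 75 and the low-dose mean 2. Ginger minus fresh ginger had 602 without the filter and 2 with the Wald test (0).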

Other observations

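Of the other lipid genes, ABCG1, which exports cholesterol, had the largest rise, at the high dose of Coptidis Rhizoma. It was at 6.89, 6.19 and 6.71 CPM at the low dose, 10.6, 10.5 and 11.2 CPM at the medium dose and 34.1, 38 and 38.8 CPM at the high dose, while vehicle was at 3.57, 4.1 and 4.22 CPM. The 3 doses did not overlap, and high against low was 2.49 ± 0.093 (SE; adjusted p = 3.72e-28, edgeR) on the log2 scale. With wortmannin it was at 6.33, 5.98 and 6.05 CPM, 0.62 ± 0.12 above vehicle (SE; adjusted p = 8.87e-05, edgeR), across different sets of sample codes. This was not particular to wortmannin, whose mean was 6.12 CPM. The high doses of fresh ginger and Pinelliae Tuber had means of 6.16 and 6.92 CPM. Every group except Scutellariae Radix high, at 3.70 CPM, had a mean above the 3.96 CPM of vehicle.

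ACSS2, which makes acetyl-CoA from acetate, was the member of the fatty acid list with the largest rise under Scutellariae Radix, from 24.5, 21.7 and 23.5 CPM at the low dose to 48.1, 46.7 and 48.2 CPM at the high dose, with the medium dose at 22.7, 21.5 and 24.1 CPM. The high-dose libraries alone stood apart, 1.04 ± 0.066 (SE; adjusted p = 6.04e-18, edgeR). Under Pinelliae Tuber, the extract of the same set in which 0 of the 30 cholesterol genes were called, ACSS2 went from 22, 20.3 and 21.3 to 16, 16 and 15.4 CPM, -0.42 ± 0.071 (SE; adjusted p = 0.00126, edgeR), with no overlap.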
